A study of Rattus norvegicus with 88 samples.

Results

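A group of microRNAs (miRNAs) known from striated muscle, made up of rno-miR-1 and rno-miR-206, rno-miR-133a and rno-miR-133b, and rno-miR-499, was followed on 88 arrays of rat liver. The names are given below without the species prefix. They are 5 of the 677 miRNAs on the array and 5 of the 314 that were detected on at least 1 array, and they were selected by name, after an earlier look at these data in which they varied between livers of the same age and sex. The livers came from untreated F344 rats (an inbred strain) killed at 2 weeks, at 5, 6 or 8 weeks, at 15 or 21 weeks, or when old, at 52, 78 or 104 weeks. There were 45 females and 43 males, with 5 animals for each age and sex except 4 males of 5 weeks and 4 males of 104 weeks. Each array held the RNA of 1 animal, made from about 30 mg of homogenized whole liver, so that a difference between animals and a difference between pieces of 1 liver cannot be told apart. All levels are normalized intensities, in which 1 is the 75th percentile of the expressed miRNAs of the same array, and a miRNA without a signal in the deposited files is called undetected.

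miRNAs are short RNAs that pair with messenger RNAs, mainly through the seed at bases 2 to 8, and lower the output of those messengers. miR-1 and miR-133a are made together in heart and skeletal muscle, where miR-1 is known for driving muscle differentiation and miR-133a for restraining smooth-muscle and growth genes. miR-206 and miR-133b are made together and are most abundant in skeletal muscle, and miR-499 is carried by a myosin gene of slow muscle and heart. None of them is a typical miRNA of hepatocytes, the main liver cell, whose most abundant miRNA is miR-122. In whole tissue, fewer cells of a type and less of the RNA per cell cannot be told apart.

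The mature sequences are shown because they fall into families that an array has to separate by a few bases. All 5 members matched RefSeq by the names of the later array design (assembly GRCr8), and capitals mark the seed.
miR-1: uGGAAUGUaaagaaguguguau
miR-206: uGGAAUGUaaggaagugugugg
miR-133a: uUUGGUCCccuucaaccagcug
miR-133b: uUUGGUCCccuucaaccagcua
miR-499: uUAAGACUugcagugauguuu
miR-1 and miR-206 share their seed and 19 of 22 bases. Counted from 1 at the 5′ end, with the base of miR-1 first, they differ by A11G, A21G and U22G. miR-133a and miR-133b share their seed and 21 of 22 bases and differ by G22A, at the last base. The seed of miR-499 was found in no other mature rat miRNA of the RefSeq table.

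The genes of these miRNAs lie at 3 places in the genome. Mir206 (chr9:30590697-30590780) and Mir133b (chr9:30594582-30594665) are on the plus strand and 3801 bases apart. Mir133a1 (chr18:2157872-2157958) and Mir1 (chr18:2160327-2160413) are on the minus strand, 2368 bases apart and within the span of the gene Mib1. Mir499a (chr3:164570612-164570676) is on the plus strand within the span of Myh7b, a myosin heavy chain gene.

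Detection differed widely between the members. miR-499 was detected on 53 of the 88 arrays, miR-133b on 35, miR-1 on 28, miR-206 on 23 and miR-133a on 8. These counts are a description, since the detection of the members was among the values that chose them. Of the 88 arrays, 24 detected no member and 7 detected all 5. The detected levels spanned from 0.0438 to 39.2 for miR-133b, from 0.0751 to 22.5 for miR-1, from 0.0787 to 2.85 for miR-206, from 0.0496 to 0.693 for miR-133a and from 0.0352 to 0.326 for miR-499. miR-133b, miR-1 and miR-206 thus ran from undetected to above the 75th percentile of an array, whereas miR-133a and miR-499 stayed below it on every array. Within groups of one age and sex, with undetected values at the lowest normalized intensity of any array (0.0120), the SD of the log2 values was 3.30 for miR-133b, 2.85 for miR-1 and 2.21 for miR-206. Those SDs ranked 1, 2 and 4 among the 314 expressed miRNAs, whose median SD was 0.45. miR-499 (SD 1.504, rank 18) and miR-133a (SD 1.16, rank 47) varied less. As the members were chosen for varying within groups, these SDs and ranks restate that choice.

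The arrays with a miR-133b signal were spread over slides and scans. miR-133b was detected on arrays of 12 of the 13 slides, and each of these 12 slides also held an array without it. By scan session, numbered 1 to 5, it was detected on 0 of 1, 3 of 13, 15 of 30, 12 of 28 and 5 of 16 arrays. The brightness of the array, measured as its 75th percentile of signal, ran from 28.1 to 289. miR-133b was detected on 16 of the 44 brighter arrays and on 19 of the 44 dimmer ones, so that detection was not more frequent on bright arrays.

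The readings did not rest on single spots. Each member had 20 spots, 10 for each of 2 probe sequences, and the probes of miR-1, miR-133b and miR-206 ranked the arrays that detected each miRNA in nearly the same order (Spearman 0.99, 0.98 and 0.96 over 28, 35 and 23 arrays). For miR-499 this value was 0.88 over 53 arrays. miR-133a was different, as one of its probes gave no signal above 0 on any of the 8 arrays that detected it, so its level came from a single probe sequence.

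At 2 weeks of age, miR-133b was at 1.88, 3.13 and 3.13 in females 1, 3 and 5 and was undetected in females 4 and 6. In males it was at 1.72 in male 1, 1.04 in male 5 and 0.0438 in male 4, and undetected in males 2 and 3. Livers of one age therefore held either a clear signal or little or none. The 5 arrays with a level above 1 were also the 5 on which miR-1 and miR-206 were detected.

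At 5 weeks, female 2 reached 12.7 and male 1 reached 10.5 for miR-133b. Females 1 and 4 were at 0.795 and 0.574 and male 3 at 1.07, while females 3 and 6 and males 4 and 6 had none detected. At 6 weeks, all 5 females had miR-133b, at 6.43, 2.39, 2.75, 0.624 and 8.59 in females 1, 2, 4, 5 and 6. The 6-week females were the only group of the 18 in which every array detected miR-133b or miR-1. Among 6-week males, male 3 was at 3.17 and male 4 at 5.07, and males 1, 2 and 5 had none detected.

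At 8 weeks the levels were low in both sexes. miR-133b was at 0.232 in female 3, 0.342 in male 1 and 0.0962 in male 2, and undetected on the other 7 arrays. Of the other members of the skeletal-muscle group, miR-1 was detected at this age only in female 3 (0.0751) and miR-206 on no array.

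At 15 weeks, male 2 gave the highest level of the series, with miR-133b at 39.2, miR-1 at 22.5, miR-206 at 2.85, miR-133a at 0.693 and miR-499 at 0.326. The 5 members together made up 3.097% of the total signal of that array, against a median of 0.00580% over the 88 arrays. Female 4 was at 7.68 for miR-133b, males 3 and 4 at 0.740 and 0.458, and the other 6 arrays of this age had none detected. On the array of male 2, the hepatocyte miRNA miR-122 (883) was below all of the other 4 arrays of 15-week males (942 to 1178). The hepatocyte miRNA miR-192 (66.7, against 63.5 to 78.5) and the number of miRNAs detected (154, against 145 to 163) were within the range of these arrays. The miRNAs of smooth muscle and stroma miR-143 (12.7, against 9.13 to 11.6) and miR-199a-3p (3.81, against 2.31 to 2.72) were above all 4 of these arrays. Others of that list did not all go the same way on male 2. miR-199a-5p was at 1.04 (median over the 88 arrays 0.864), miR-214 at 0.741 (median 0.811) and miR-145 was undetected. The part of stroma in the muscle signal was not tested. At 21 weeks, miR-133b was at 5.68, 5.79 and 2.99 in females 1, 3 and 4, at 0.155 in female 2, and at 0.909 and 1.58 in males 3 and 4. It was undetected in female 6 and in males 1, 5 and 6.

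At 52 and 104 weeks, all members but miR-499 were detected on no array of either sex, 19 arrays in all. At 78 weeks, male 3 was at 12.2 for miR-133b, 3.41 for miR-1, 1.46 for miR-206 and 0.193 for miR-133a. Females 1, 2 and 3 of this age had a faint miR-133b signal, at 0.119, 0.0593 and 0.0680, without miR-1 or miR-206. A single liver of the 29 from 52 weeks on thus carried miR-1 and miR-206, and the faint miR-133b of the 3 females was within the range of faint signals in younger rats, such as 0.0962 in 8-week male 2 and 0.0438 in 2-week male 4. Between 5 and 21 weeks, miR-133b was detected on 25 of 49 arrays, and from 52 weeks on 4 of 29. For miR-1 these counts were 22 of 49 and 1 of 29, and for miR-206 17 of 49 and 1 of 29.

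**Figure D1:**
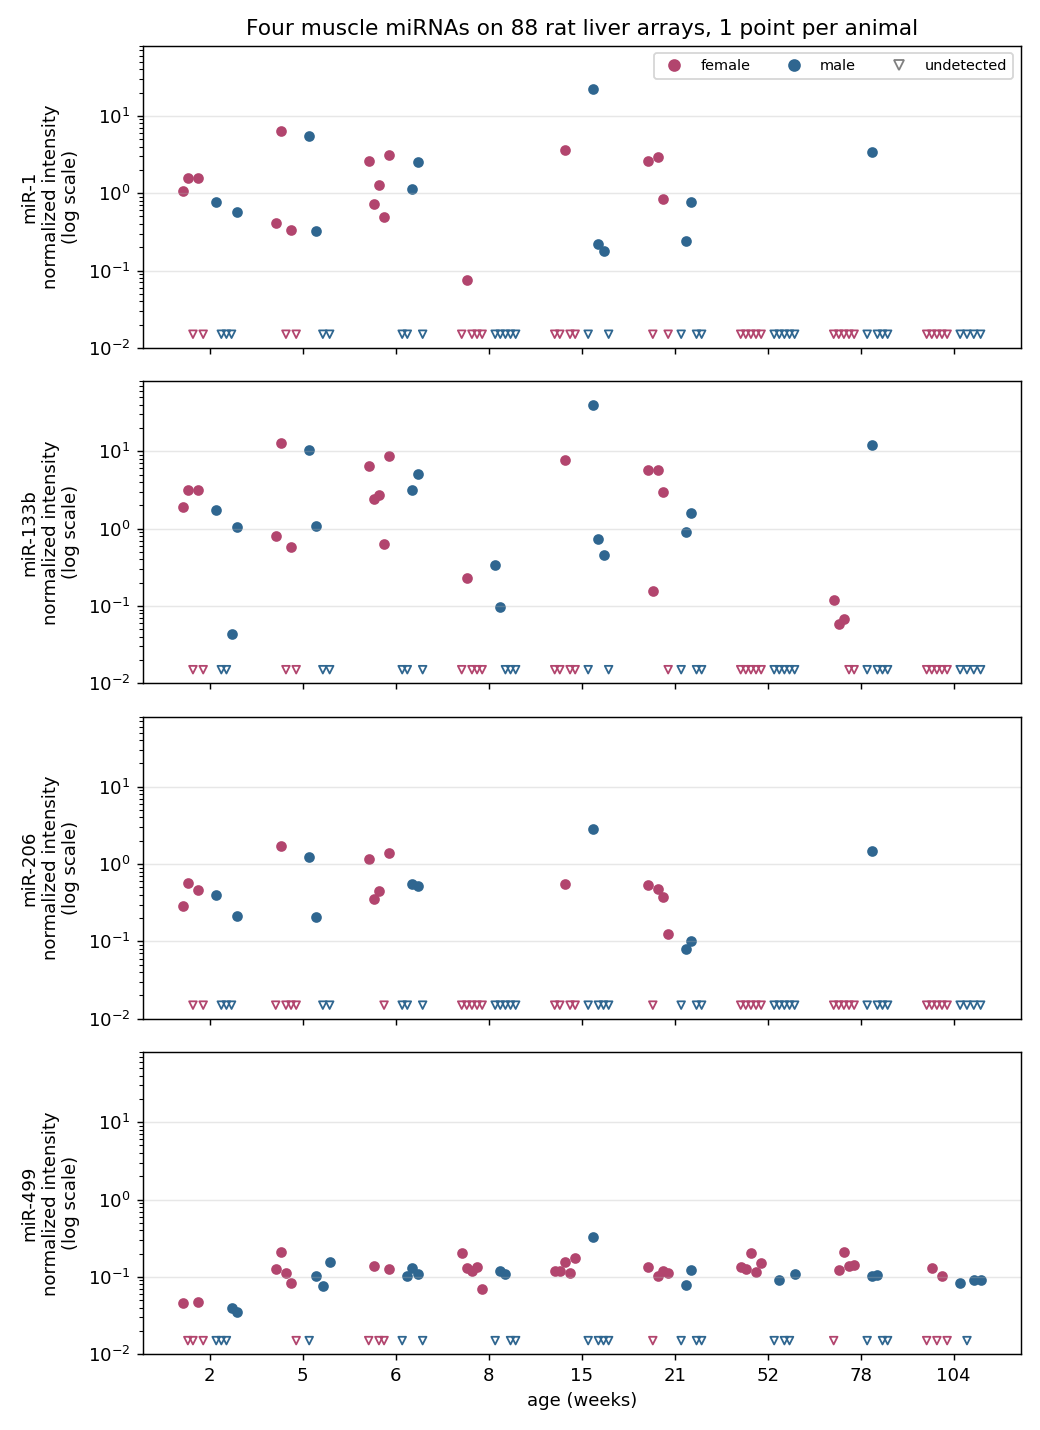
Normalized intensity (log scale, where 1 is the 75th percentile of the array) of miR-499 (lowest panel), miR-206, miR-133b and miR-1 by age in weeks, with 1 point for each animal, females in red, males in blue, and undetected values as open triangles near the lower edge. The last 3 of these scatter from undetected to 39.2 within groups and are undetected on all arrays of 52 and 104 weeks, while miR-499 lies between 0.0352 and 0.326 wherever it was detected.

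The counts of the age classes, both sexes together, were also taken within scans. In scan 3, miR-133b was detected on 11 of 17 arrays of 5 to 21 weeks and 2 of 10 of 52 to 104 weeks, and in scan 4 on 9 of 17 and 1 of 8. In scan 5 the counts were 2 of 6 and 1 of 7, and in scan 2 they were 3 of 8 and 0 of 4. With undetected arrays at 0.0120, the mean log2 level of miR-133b from 52 weeks on minus that from 5 to 21 weeks was -3.64 in females and -2.49 in males, for miR-1 it was -3.42 and -1.80, and for miR-206 -2.22 and -0.98. In males these differences ran from -3.21, -2.38 and -1.48 without 78-week male 3 to -2.13, -1.43 and -0.70 without 15-week male 2. After normexp background correction, those of miR-133b were -0.85 in females and -0.43 in males, and within scan 5 that of females was 0.77 (2 arrays of 5 to 21 weeks and 3 of 52 weeks or more). How large these differences are depends on the value put in for undetected signals. For miR-499 the same differences were -0.12 and -0.02, and for miR-133a -0.57 and -0.11. The sign of 3 of these 4 turned when single arrays were left out, with ranges of -0.23 to 0.07 for miR-499 in females, -0.15 to 0.12 for miR-499 in males and -0.40 to 0.12 for miR-133a in males (without 78-week male 3 and without 15-week male 2). With the mean processed signal, the difference was -4.97 for miR-133a in females and -3.26 for miR-206 in males. No test was made, since the levels by age were among the values that chose the members. The fit over all arrays did allow a test of whether the change differed between the sexes. None of the 5 members passed it (lowest adjusted p 0.944 in limma, 0 at an unadjusted p under 0.05), against 3.18% of the 314 miRNAs. The members were chosen for varying within groups, and that spread is the error of this test, so the result is not read against that share. The fit took each class as the mean of its ages, whereas the differences above are between means over arrays. In the fit, the difference between the sexes in the change was 1.06 ± 1.54 (SE) for miR-133b and 1.54 ± 1.33 for miR-1, male minus female on the log2 scale.

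miR-1, miR-133b and miR-206 were found on the same arrays. All 28 arrays with miR-1 also had miR-133b, and 22 of the 23 arrays with miR-206 had both. The exception was 21-week female 6, in which miR-206 (0.126) was detected together with miR-499 only. Where only some of the 3 were detected, the level of miR-133b was low. miR-206 was detected on all 22 arrays with miR-133b at 0.909 or above and on none of the 13 with miR-133b at 0.795 or below. miR-1 was detected with miR-133b from 0.232 upward, and the 7 arrays with miR-133b but without miR-1 had miR-133b at 0.0438 to 0.342.

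The 3 also moved together in level. Over the 28 arrays with both, the log2 levels of miR-1 and miR-133b had a Pearson correlation of 0.98, while miR-133b spanned 7.40 log2 units, and their log2 ratio had an SD of 0.40. Over the 22 arrays with miR-206 and miR-133b the correlation was 0.92 and the SD of the log2 ratio 0.54. These are descriptions over arrays whose points share the scaling of each array, and the members come from different loci in the case of miR-1 and miR-133b and from the same locus in the case of miR-206 and miR-133b.

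miR-133a was seen only on arrays that also had miR-1, miR-133b and miR-206. On its 8 arrays it stood at 1.503% to 1.94% of the miR-133b intensity, with an SD of the log2 ratio of 0.12, while miR-133b itself ran from 3.13 to 39.2. As different probes read the 2 miRNAs, the size of this ratio is not a ratio of amounts. The near-constant ratio is given beside the single base that separates the sequences (G22A), and the part of miR-133b in the miR-133a signal was not tested. The other arm of the hairpin, miR-133a*, was detected on 6 arrays, all of them among those 8. It was at 0.859 in 15-week male 2, 0.299 in 5-week female 2, 0.155 in 5-week male 1, 0.142 in 78-week male 3, 0.0994 in 15-week female 4 and 0.0449 in 2-week female 5. The highest array for miR-133a was thus also the highest for miR-133a*. The other arms of the remaining members, miR-499*, miR-206*, miR-133b* and miR-1*, were detected on no array.

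miR-499 followed this pattern less closely in its detection. It was detected on 25 of the 36 arrays with at least 1 of miR-1, miR-133b and miR-206, and on 28 of the 52 arrays with none of them, where it lay between 0.0705 and 0.205 (median 0.116). Over all 88 arrays its Spearman correlation was 0.16 with miR-1, 0.15 with miR-133b and 0.19 with miR-206, against 0.93 between miR-1 and miR-133b, 0.89 between miR-1 and miR-206 and 0.84 between miR-133b and miR-206. On the arrays that detected both, its Spearman correlation was 0.47 with miR-1 (20 arrays), 0.36 with miR-133b (24), 0.58 with miR-206 (18) and 0.68 with miR-133a (7), against 0.97 between miR-1 and miR-133b (28). Its highest level, 0.326, was nevertheless on the array with the highest miR-1 and miR-133b (15-week male 2), and its next, 0.208, was on that of 5-week female 2. At 2 weeks it was detected on 4 of 10 arrays at 0.0352 to 0.0467, below every later detected level, the lowest of which was 0.0705.

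**Figure D2:**
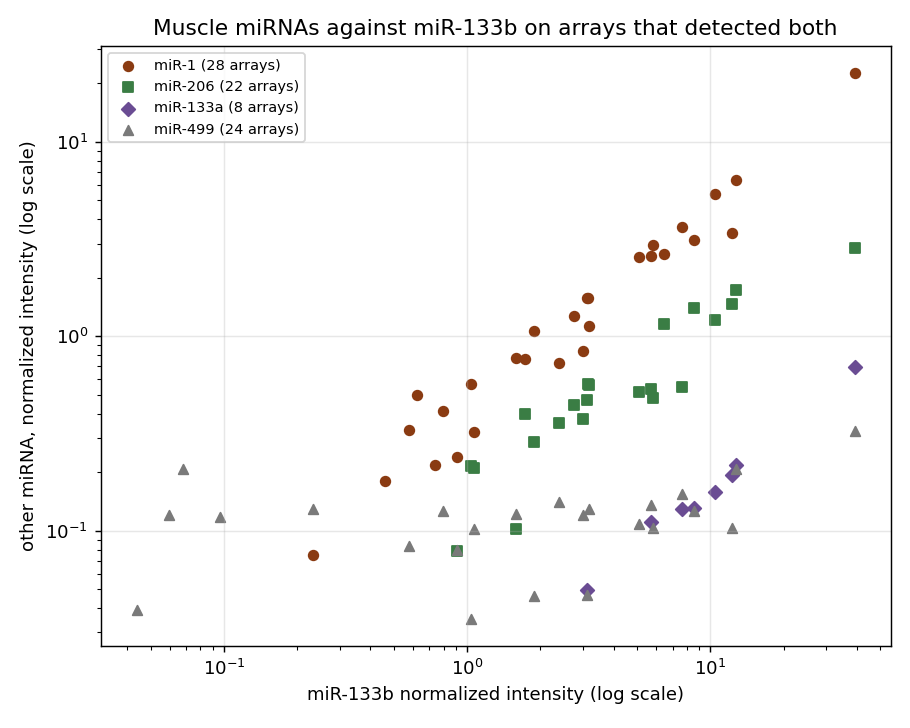
Normalized intensity of miR-1, miR-206, miR-133a and miR-499 (vertical axis, log scale) against that of miR-133b (horizontal axis, log scale), with 1 point for each array that detected both (28, 22, 8 and 24 arrays). miR-1, miR-206 and miR-133a rise along with miR-133b, and miR-499 stays near 0.1 over most of the range of miR-133b.

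The proportion of miR-206 to miR-133b was lower at 15 and 21 weeks of age than at 2 weeks, although both come from one locus. On the 22 arrays with miR-1, miR-133b and miR-206, the log2 ratio of miR-206 to miR-133b was -2.46 ± 0.27 (SD, n = 5) at 2 weeks, -2.73 ± 0.31 (n = 9) at 5 and 6 weeks and -3.58 ± 0.32 (n = 7) at 15 and 21 weeks. The ranges of 2 weeks (-2.74 to -2.11) and of 15 and 21 weeks (-3.96 to -2.99) did not overlap, and that of 5 and 6 weeks (-3.29 to -2.35) overlapped both. The only old array, 78-week male 3, was at -3.06. As intensities of different probes were divided, the change of the ratio between arrays can be read, but not its size.

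The ratio of miR-1 to miR-133b showed no such separation. Its log2 value was -0.97 ± 0.14 (SD, n = 5) at 2 weeks, -1.30 ± 0.31 (n = 9) at 5 and 6 weeks and -1.26 ± 0.44 (n = 7) at 15 and 21 weeks, and -1.84 in 78-week male 3. The ranges of the 3 age bands overlapped. The ratio of miR-206 to miR-1 did not separate the bands either, with -1.49 ± 0.37 (SD, n = 5) at 2 weeks, -1.43 ± 0.57 (n = 9) at 5 and 6 weeks and -2.33 ± 0.70 (n = 7) at 15 and 21 weeks, where the ranges of 2 weeks (-1.91 to -0.93) and of 15 and 21 weeks (-2.98 to -1.16) overlapped. The separation by age thus held against miR-133b and not against miR-1.

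The miR-206 ratio was also taken among arrays scanned together. In scan 4 the log2 ratio was -2.47 and -2.28 on the 2 arrays of 2 weeks, -3.11 to -2.47 on 3 arrays of 5 and 6 weeks and -3.80 to -3.53 on 3 arrays of 15 and 21 weeks. In scan 3 it was -2.11 on 1 array, -3.29 to -2.35 on 5 and -3.96 to -2.99 on 4. In scan 5 both arrays were of 2 weeks, at -2.74 and -2.72, the lowest ratios of that age and within the range of 5 and 6 weeks. The ratio at 2 weeks thus also differed between scans, and no scan but 3 and 4 held arrays of 2 weeks and of 15 and 21 weeks with all 3 miRNAs. The level of miR-133b did not separate the bands, with 1.04 to 3.13 at 2 weeks, 1.07 to 12.7 at 5 and 6 weeks and 0.909 to 39.2 at 15 and 21 weeks. At similar levels of miR-133b the gap between the bands was uneven. 6-week female 6 (8.59) had a log2 ratio of -2.63 and 15-week female 4 (7.68) one of -3.80, but 6-week male 4 (5.07) had -3.29 and 21-week female 1 (5.68) had -3.42, and 6-week female 2 (2.39) had -2.74 and 21-week female 4 (2.99) had -2.99. The ratios are a description without a test, because the rule that chose the members used them, and they exist only where miR-206 was detected.

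**Figure D3:**
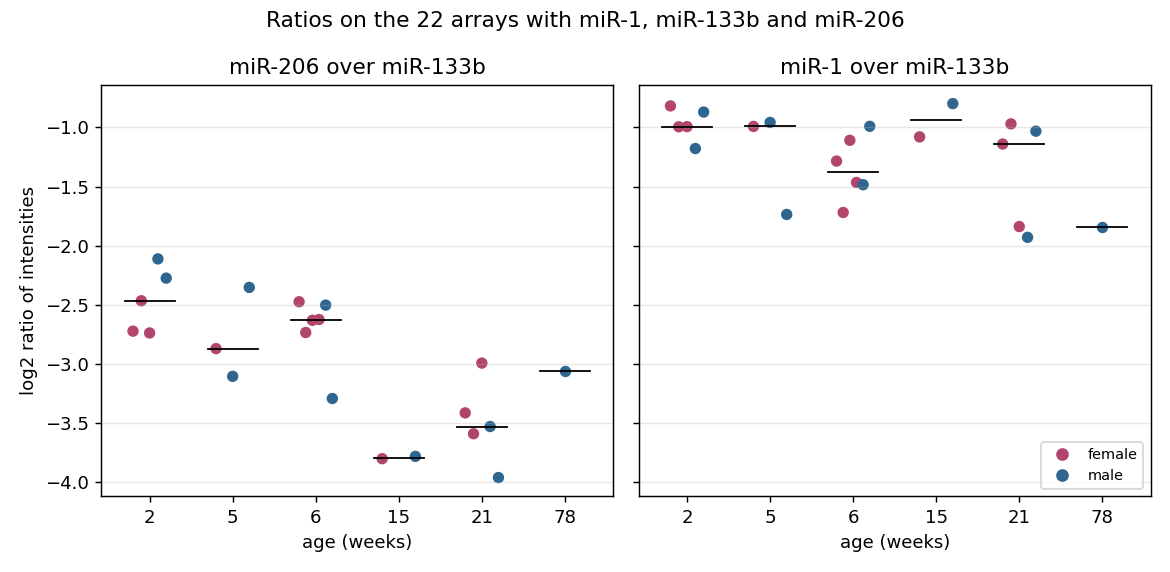
Log2 ratio of intensities of miR-206 over miR-133b (left) and of miR-1 over miR-133b (right) by age in weeks on the 22 arrays that detected all 3, with 1 point for each array (females red, males blue) and a bar at the median of each age. The miR-206 ratio lies at -2.74 to -2.11 at 2 weeks and -3.96 to -2.99 at 15 and 21 weeks, while the miR-1 ratio overlaps between ages.

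The sexes were set against each other within each age, over all 314 miRNAs with limma, at an adjusted p under 0.05 and at least 1.5-fold. No member passed at any age, 0 of 45 pairs of a member and an age, against 6.09% of the 2826 pairs over all miRNAs. In 10 of the 45 pairs the member was undetected in both sexes and could not pass, which leaves 35. The members were chosen for varying within groups, and that spread is the error of this test, so a difference was hard to call. The 0 is therefore not read against the share over all miRNAs. By age, 18.8% of the 314 miRNAs were called at 2 weeks, 0% at 5, 0.637% at 6, 5.1% at 8, 9.24% at 15, 6.05% at 21, 6.69% at 52, 3.82% at 78 and 4.46% at 104 weeks. An unadjusted p under 0.05 was reached by 5 of the 45 pairs, and the methods' t-test, run on each age alone, called 0 of the 45 (3 at an unadjusted p under 0.05).

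At 6 weeks, where all 5 females but only 2 of 5 males had miR-1 and miR-133b, the male minus female difference was -3.90 ± 1.79 (SE) for miR-1 and -4.59 ± 2.07 for miR-133b on the log2 scale with undetected values at 0.0120. Neither passed in limma (adjusted p 0.925 for both). At 15 weeks the sexes were the other way round, with 3 of 5 males and 1 of 5 females, so the side with more detections changed with age. Over all ages, miR-133b was detected on 20 of 45 female and 15 of 43 male arrays, miR-1 on 16 and 12, and miR-206 on 13 and 10.

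miR-499 leaned towards females at most ages. From 5 weeks on it was detected on 31 of 40 female and 18 of 38 male arrays, and at 8, 15 and 52 weeks it was detected in every female. At 15 weeks the females were at 0.120, 0.118, 0.154, 0.112 and 0.176 (females 1, 2, 4, 5 and 6), and of the males only male 2 had it (0.326). At 52 weeks the females were at 0.133, 0.126, 0.201, 0.114 and 0.151 (females 1, 5, 6, 8 and 9), and males 5 and 10 were at 0.0917 and 0.111. Thus at 52 weeks every female lay above both detected males, while at 15 weeks the highest value was a male's. The male minus female difference in limma was -2.53 ± 0.94 (SE, adjusted p 0.0612) at 15 weeks, -2.34 ± 0.94 (adjusted p 0.111) at 52 weeks and -2.08 ± 0.94 (adjusted p 0.228) at 8 weeks. Without 15-week male 2, the 15-week difference was -3.48 (adjusted p 0.0119), and with the replicate number as a block it was -2.65 (adjusted p 0.0395). The 78-week difference was -1.67 (adjusted p 0.337), and -3.34 (adjusted p 0.0323) with the mean processed signal. The other alternative settings, 97 at 15 weeks and 98 at 78 weeks, left these calls unchanged. The difference was below 0 at 7 of the 9 ages and above 0 at 6 weeks (0.56) and 104 weeks (0.85).

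Averaged over the 9 ages in the same limma fit, the male minus female difference of miR-499 was -1.01 ± 0.32 (SE, adjusted p 0.0102), where 7.96% of the 314 miRNAs were called. This average was chosen after the values were seen, and it was not called under 4 of the alternative settings. The averages of the other 4 members did not pass (adjusted p 0.505 to 0.907). Most of the difference lay in whether miR-499 was detected, since the detected levels overlapped, with a median of 0.126 in females and 0.104 in males from 5 weeks on. Detection was a call near background and not presence against absence. Before scaling, the stronger probe of miR-499 reached 10.6 on arrays without detection and began at 4.45 on arrays with it.

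The detection of miR-499 also moved with the brightness of the array and with the scan. It was detected on 32 of the 44 brighter and 21 of the 44 dimmer arrays, and 28 of the brighter arrays were from females and 16 from males. Within the brighter arrays it was detected in 22 of 28 females and 10 of 16 males, and within the dimmer ones in 11 of 17 and 10 of 27. By scan, it was detected in 1 of 6 females and 0 of 7 males in scan 2, 12 of 15 and 10 of 15 in scan 3, 13 of 17 and 5 of 11 in scan 4, and 7 of 7 and 5 of 9 in scan 5. Females were thus ahead within each brightness class and each of these scans, and the part of brightness in the sex difference was not tested.

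**Figure D4:**
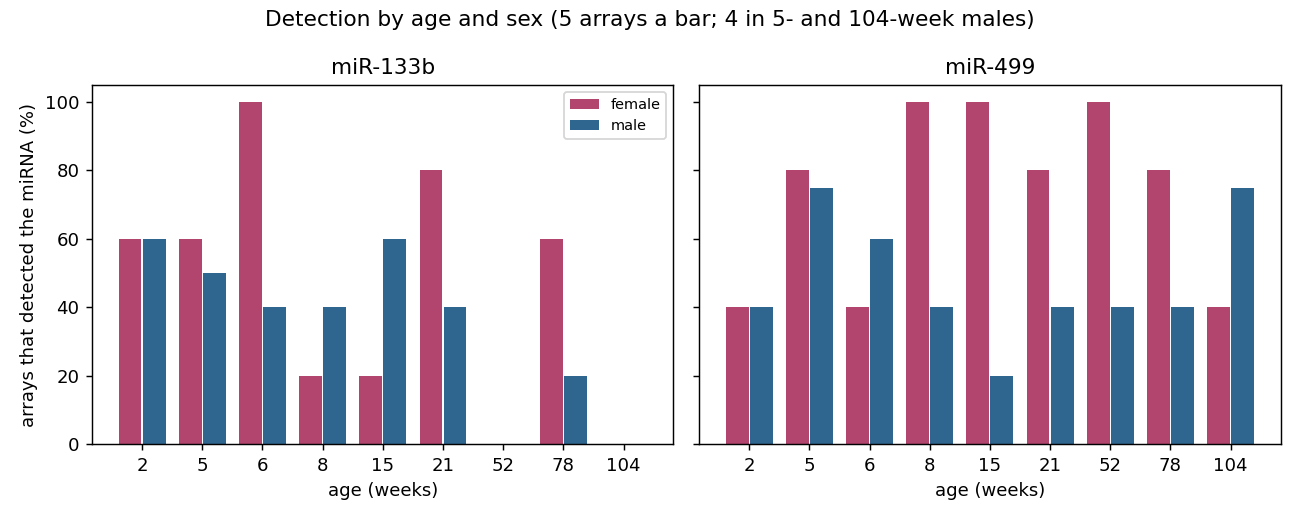
Percent of arrays that detected miR-133b (left) and miR-499 (right) at each age in weeks, for females (red) and males (blue), with 5 arrays in each bar and 4 in males of 5 and 104 weeks. miR-133b was detected in all 6-week females and in no animal of 52 or 104 weeks, and miR-499 in all females of 8, 15 and 52 weeks.

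Other miRNAs of striated muscle were looked at as a list of miR-208, miR-208*, miR-208b-3p, miR-208b-5p, miR-378, miR-378* and miR-486. The 4 of the miR-208 family, which are carried by myosin genes of heart and slow muscle, were detected on 0 of 88 arrays. miR-378, which is also abundant in other energy-rich tissues, was detected on 88 arrays at 0.712 to 5.90, and miR-378* on 87. Their Spearman correlations with miR-133b were -0.20 and -0.11, so that neither followed the skeletal-muscle group. miR-486 was not on this array.

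Markers of other cell types were compared with the members over the 88 arrays. The hepatocyte miRNAs miR-122, miR-192 and miR-194 were detected on every array, with Spearman correlations of -0.23, -0.23 and -0.27 with miR-133b, and miR-122 lay between 375 and 1284. Of the 5 miRNAs of smooth muscle and stroma, miR-143, miR-199a-5p, miR-199a-3p and miR-214 were on every array and miR-145 on 31, with correlations of 0.26, 0.20, 0.36, 0.17 and 0.08. Endothelial miR-126 was at 12.8 to 23.4, with a correlation of 0.00. These values are not set against the correlations among the members, which were chosen with their co-detection known.

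The red-cell miRNAs miR-451 and miR-144 (-0.07 and -0.18) and the 4 leukocyte miRNAs miR-223, miR-142-3p, miR-142-5p and miR-150 (-0.27, -0.27, -0.32 and -0.09) were on every array and correlated weakly with miR-133b. Of the epithelial list, miR-200a, miR-200b and miR-429 had correlations of 0.26, 0.28 and 0.29, and miR-200c and miR-141 of 0.08 and 0.02. The brain miRNAs miR-124 and miR-9 were detected on no array.

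The pancreatic and endocrine miRNAs were also uneven between livers. miR-375 was detected on 76 arrays, miR-216a on 16 and miR-217 on 5, and miR-216b was not on the array. Of the 76 arrays with miR-375, 32 had at least 1 of miR-206, miR-133b and miR-1. Of the 16 arrays with miR-216a, 10 had at least 1 of miR-1, miR-133b and miR-206, and of the 5 with miR-217, 3 had, where 36 of all 88 arrays had. The share was close to that of all arrays for miR-375 and above it for miR-216a and miR-217, and no test was made. On 15-week male 2, the array with the highest muscle signal, miR-375, miR-216a and miR-217 were all undetected. The correlations of miR-375 and miR-216a with miR-133b were 0.00 and 0.20.

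The miRNAs most like the members were sought by their mean Spearman correlation with the 4 members detected on at least 10 arrays, over the log2 levels of all 88 arrays. miR-199a-3p had a mean of 0.27, miR-143 of 0.24, miR-10b of 0.22, miR-505 of 0.21 and miR-17-5p of 0.19. Scored in the same way against the other 3 members, miR-1, miR-133b and miR-206 had means of 0.66, 0.64 and 0.64, and miR-499 of 0.17, but the members were chosen with their co-detection known, so a gap to other miRNAs is no finding. miR-505 owed its place to miR-499 (0.70), as its correlations with miR-1, miR-133b and miR-206 were 0.03, 0.04 and 0.07. These correlations are descriptions over arrays that share the scaling and brightness of each array.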

How the data were processed

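RNA from the livers of 88 F344 rats was run on Agilent rat miRNA arrays with 1 dye, and no animals were pooled. As deposited by the authors, the spot and total gene signals are background-subtracted intensity values on a linear scale from Feature Extraction 10.7.3.1, and an undetected miRNA is written as 0.1. The software's detection flag, a deposited 0 or 1 for each miRNA, is of no other unit. The authors also deposited a table of ratio values, the total gene signal over the 75th percentile of the array.

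A miRNA counted as detected with a total gene signal above 0.1, which held for 314 of 677. On each array, signals were divided by the value of rank 236 of these 314 (undetected signals set to the lowest measured, 1.84), undetected values were then set to 0.0120, the lowest normalized value of any array, and log2 was taken. Sex differences were fitted with limma 3.58.1 in R 4.3.3 (18 groups, 88 arrays, Benjamini-Hochberg adjustment over 314 miRNAs within a contrast), and the procedure was tested on simulated data. The classes compared were 5 to 21 weeks and 52 to 104 weeks. Scan sessions, parted by more than 8 hours, and slides served as batches. No target spot was saturated. The number of arrays in a group, 4 or 5, limits the precision.

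The members and lists were chosen with earlier results of these data known. The miRNAs named are the 5 members, their other arms, the marker lists and the 5 miRNAs with the highest mean Spearman correlation with the members. Other scalings, values for undetected signals, normexp correction (on median spot and median background signals, with an offset of 50), the mean processed signal, the deposited table, a stricter filter, blocks and left-out arrays were tried. Tables and plots were made with pandas 2.3.3, numpy 2.4.6, matplotlib 3.10.9 and scipy 1.17.1 under Python 3.11.15.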

Additional observations from a re-analysis of the deposited data

Results flagged for a closer look

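In 29 of the 63 groups of 4 or 5 arrays in which a member was detected at all, 1 array stood apart from the others of its age and sex, with a gap to the next array above the 95% critical value of Dixon's test, which chance passes in about 1 of 20 groups when samples were not chosen for their spread. As the members were chosen because they varied within groups, the 29 values are a description and are not read against that rate. In 19 of them the other arrays of the group were all undetected and set to 0.0120, which fixed the outcome. These 29 values fell on 12 arrays.

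The array of 15-week male 2 stood apart for all 5 members, with miR-1 at 22.5, miR-133a at 0.693, miR-133b at 39.2, miR-206 at 2.85 and miR-499 at 0.326. The next arrays of its group were at 0.217 for miR-1 and 0.740 for miR-133b, and the other 3 members were undetected there. A further 4 arrays stood apart for miR-1, miR-133a, miR-133b and miR-206 alike. 5-week female 2 had them at 6.38, 0.217, 12.7 and 1.73, and 5-week male 1 at 5.40, 0.158, 10.5 and 1.22. 15-week female 4 had them at 3.63, 0.129, 7.68 and 0.551, and 78-week male 3 at 3.41, 0.193, 12.2 and 1.46.

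miR-133a also stood apart in 21-week female 1 (0.110), 2-week female 5 (0.0496) and 6-week female 6 (0.131), each the only array of its group with miR-133a. At lower levels, 8-week female 3 stood apart for miR-1 (0.0751) and miR-133b (0.232), and 8-week male 1 for miR-133b (0.342). miR-499 was undetected, and so set at 0.0120, in 104-week male 3 and 21-week female 2, the only arrays of their groups without it. The part of the sampled tissue and of the animal in these values was not tested.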

How the results depend on the processing

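The detection counts were the same under the software's own flag. For the sex difference, 0 of 45 member-age pairs passed in the reported fit, with the scan or the slide as a block, under the methods' t-test and without a minimum fold. There was 1 with undetected values at the lowest detected signal of the same array (miR-133a at 15 weeks), 1 with the mean processed signal (miR-499 at 78 weeks), 1 with the replicate block (miR-499 at 15 weeks, -2.65, adjusted p 0.0395), and between 0 and 1 with single arrays left out (1 without 15-week male 2, miR-499 at 15 weeks). No member passed the test of the sex difference in the change with age under any alternative that was run. Of 33 pairs of one age and replicate number, 17 correlated above 0.1. The mean correlation was 0.053 for the same number, against -0.008 for different numbers. Whether the numbers paired the animals is not settled by these values, and the reported fit used no pairing. The average sex difference of miR-499 was no longer called with scaling on all miRNAs of the array (-1.15, adjusted p 0.0589), with undetected values at the lowest signal of the array (-0.26, adjusted p 0.0668), with the mean processed signal (-0.53, adjusted p 0.319) and, for its size, after normexp correction (-0.04, adjusted p 0.00125). With single arrays left out its adjusted p ran from 0.00261 to 0.0206.

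The change from 5 to 21 to 52 to 104 weeks shrank after normexp correction in females and males to -0.56 and -0.33 for miR-1, -0.85 and -0.43 for miR-133b and -0.23 and -0.10 for miR-206, and it moved with the mean processed signal to -4.97 for miR-133a in females and -3.26 for miR-206 in males. Within scan 5 it was 0 for miR-1 and 0.77 for miR-133b in females (2 and 3 arrays). The single 2-week array of scan 3 had ratios of -2.11 (miR-206) and -1.18 (miR-1) to miR-133b. The cause was not tested. Signals near background limit what can be said of miR-499, miR-133a and faint miR-133b, because an undetected value is only a bound that is higher on a dim array.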
